A study of Homo sapiens with 12 samples.

Results

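The genes described here encode the core histones H2A, H2B, H3 and H4 and the linker histone H1, measured in Hodgkin lymphoma cell lines. They were taken as the probe sets with a single gene symbol that starts with H1-, H2AC, H2BC, H3C or H4C, with the brightest probe set for each gene. The rule found 62 genes of 18404 named genes, each with 1 probe set. Of these, 59 were protein-coding: 9 H1, 14 H2A, 16 H2B, 8 H3 and 12 H4 genes. The other 3 (the pseudogenes H2BC19P and H1-9P and the antisense RNA H1-10-AS1) were counted apart, and none of them passed the test between lines. The 17 probe sets that name several genes, among them the copies H3C13, H3C14 and H3C15, were not used as members. By RefSeq, 49 of the 59 genes lie on chromosome 6, 6 on chromosome 1, 2 on chromosome 3 and 2 on chromosome 12.

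The 12 samples were cultures of L-1236 and U-HO1, both human Hodgkin lymphoma lines. The medium was RPMI 1640 for L-1236, while U-HO1 was kept in IMDM. Cells had been transduced with shRNAs against the transcription factor GATA-3 or with a non-functional control shRNA (siSCR in the labels), kept for 3 days and sorted for GFP, so every sample, controls included, consisted of transduced GFP-positive cells. RNA of 25000 sorted cells was amplified and hybridised to 1 Affymetrix whole-transcript array per sample, with 3 arrays in each of the 4 groups. The series calls the samples independent without saying whether they came from separate transductions, and each p-value therefore reflects only how these arrays vary, which may be technical.

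Core histones form the octamer around which DNA is wound, and H1 binds the linker DNA where it enters and leaves the nucleosome. Most of their genes are replication-dependent: they are transcribed in S phase, largely from clusters on chromosomes 6 and 1, and their mRNAs end in a stem-loop bound by SLBP in place of a poly(A) tail. A few members, such as H2AC6, H2BC4, H2BC5, H2BC12, H2BC21 and H1-2, also give polyadenylated mRNAs, and H1-10 is expressed outside S phase. H1-6, H1-7, H1-8, H2AC1 and H2BC1 are mainly known from germ cells, and H1-1 is known from few somatic tissues. How reverse transcription was primed, on which the signal of an mRNA without a tail depends, was not given in the sources used here.

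Promoters of 6 members on which the results turn are shown first, as the 150 bases before the RefSeq start in the direction of transcription (GRCh38.p14). H1-5 and H4C6 differed downward in U-HO1, H2AC17 and H2BC5 upward, H2AC6 did not pass the test between lines, and H1-1 was the member called when its relation to replication genes was fitted over all arrays. Capitals mark matches, on either strand, of the CCAAT box (CCAAT), the TATA box (TATAAA), the octamer (ATTTGCAT), the H1 box (AAACACA) and the core of the H4 element bound by HINFP (GTCCG).
H1-5 (chr6:27867589-27867738, minus strand): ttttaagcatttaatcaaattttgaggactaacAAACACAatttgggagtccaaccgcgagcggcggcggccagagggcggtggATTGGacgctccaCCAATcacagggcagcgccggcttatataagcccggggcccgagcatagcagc
H4C6 (chr6:26240243-26240392, plus strand): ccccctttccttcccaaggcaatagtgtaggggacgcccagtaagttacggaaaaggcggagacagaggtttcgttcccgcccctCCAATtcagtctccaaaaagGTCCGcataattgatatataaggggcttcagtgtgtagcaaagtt
H2AC17 (chr6:27893186-27893335, minus strand): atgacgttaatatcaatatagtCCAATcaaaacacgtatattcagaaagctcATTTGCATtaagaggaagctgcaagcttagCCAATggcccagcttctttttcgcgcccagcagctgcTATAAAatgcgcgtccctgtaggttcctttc
H2BC5 (chr6:26157971-26158120, plus strand): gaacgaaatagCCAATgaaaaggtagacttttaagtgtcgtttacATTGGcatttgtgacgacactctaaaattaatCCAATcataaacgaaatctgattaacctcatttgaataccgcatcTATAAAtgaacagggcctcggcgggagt
H2AC6 (chr6:26124022-26124171, plus strand): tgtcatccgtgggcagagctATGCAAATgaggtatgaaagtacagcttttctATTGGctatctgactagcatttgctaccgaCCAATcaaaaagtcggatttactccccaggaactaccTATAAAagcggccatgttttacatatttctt
H1-1 (chr6:26017788-26017937, minus strand): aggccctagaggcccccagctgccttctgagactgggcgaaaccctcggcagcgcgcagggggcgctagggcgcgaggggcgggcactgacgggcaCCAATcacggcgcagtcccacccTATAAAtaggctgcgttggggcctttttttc

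In the 250 bases before the start, which were read for 54 of the 59 members, CCAAT was found in 46 (85.2%) against 33.0% of 27305 promoters in RefSeq. TATAAA was found in 35 (64.8%) against 11.1% of all promoters. The octamer was found in 23 members, 10 of 13 H2A and 13 of 16 H2B genes, against 1.66% of all promoters. The H1 box was found in 7 members, all of them H1 genes, against 4.95% of all promoters. GTCCG was found in 14 members, 9 of them among the 10 H4 genes read, against 24.0% of all promoters. No motif holds another within its letters, and a match is only a description of the sequence. Among the promoters read, CCAAT stood in 6 of 6 genes that were lower in U-HO1 and in 13 of 17 that were higher, and the octamer in 2 of 6 and 7 of 17. CCAAT also went with class: 13 of 13 H2A, 16 of 16 H2B, 6 of 6 H3, 8 of 9 H1 and 3 of 10 H4 promoters held it. The higher genes without it were H4C14, H4C4, H4C16 and H1-10. H3C11, which was lower, had no promoter entry and is not among the 6.

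GATA3 itself was checked first. On L-1236 arrays labelled control it read 10.29, 10.69 and 9.95 (log2), and on those labelled knockdown 10.80, 10.00 and 10.24. U-HO1 arrays labelled control gave 11.24, 10.90 and 10.24, and those labelled knockdown 11.07, 10.12 and 10.22. The groups overlapped in both lines, so every group below is named by its label. Array medians lay between 6.96 and 7.09, and no 2 arrays held identical values. The 8 Hodgkin markers had line means of 7.06 to 12.10, and 6 T-cell genes stayed between 5.90 and 6.44. Of 5 B-cell genes, CD22 had line means of 8.96 in L-1236 and 6.34 in U-HO1 and was the 1 called between lines, lower in U-HO1, while MS4A1, CD79A, CD79B and BLK lay between 5.72 and 7.59 in both. A type I interferon list of 18 genes spanned 7.54 to 9.89 over the L-1236 arrays and 7.85 to 8.12 over the U-HO1 arrays. A mean over 44 DNA replication genes (MCM, GINS, polymerase, RFC, RPA and nucleotide synthesis genes and their regulators), used below as the replication score, spanned 0.67 over the L-1236 arrays and 0.23 over the U-HO1 arrays.

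**Figure D1:**
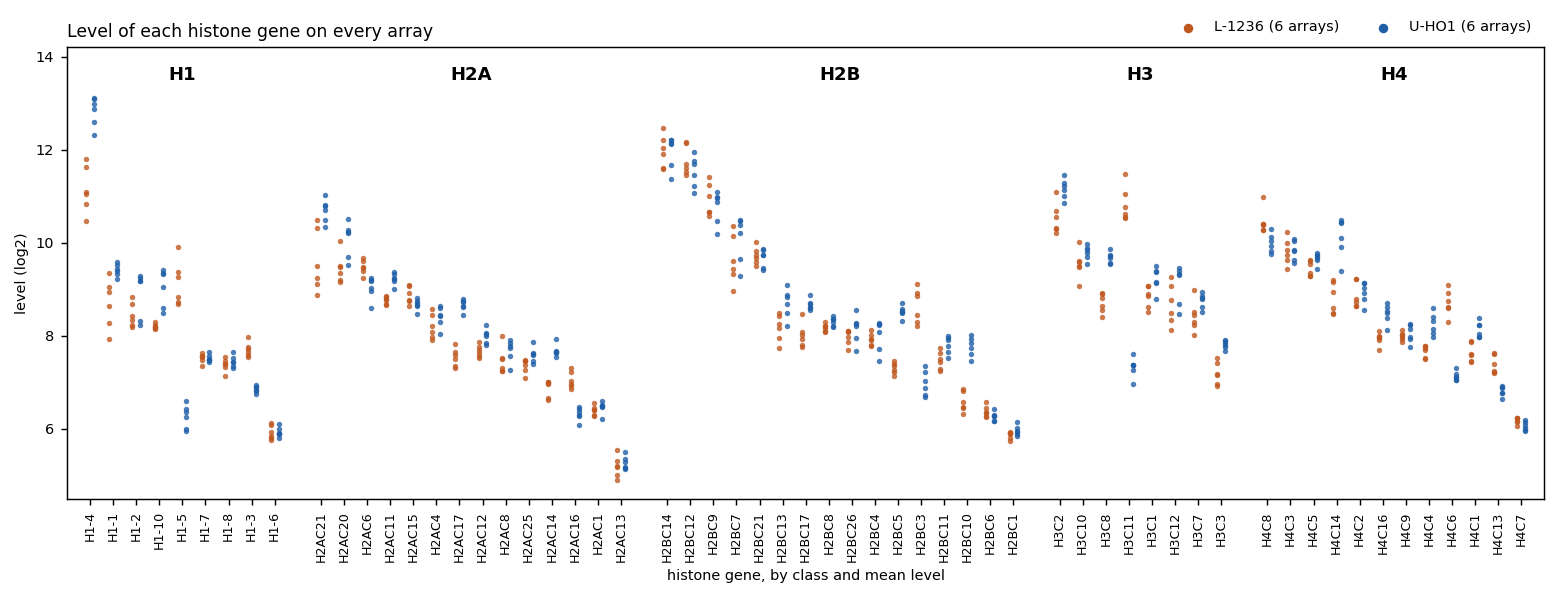
Level (log2) of each of the 59 histone genes on every array, grouped by class and ordered by mean level; orange points are the 6 L-1236 arrays and blue points the 6 U-HO1 arrays, both labels together. H3C11, H1-5 and H4C6 lie apart and lower in U-HO1, and H1-4, H2BC5 and H2BC10 lie apart and higher.

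The plot of levels on every array gives all 59 genes. Mean levels over 12 arrays ran from 5.93 to 11.99 in H1, 5.23 to 10.14 in H2A, 5.92 to 11.96 in H2B, 7.50 to 10.85 in H3 and 6.12 to 10.23 in H4. These ranges compare probe sets that differ in their probes, so they rank no gene against another. Histone copies are nearly identical in their coding sequence, so the signal of 1 gene can hold RNA of another, and this was not separable in these values. For 7 genes (H1-6, H2AC1, H2AC13, H2AC16, H2BC1, H2BC6 and H4C7) the mean was at or below 7.04, the median over all probe sets. The files give no detection call, so whether these genes were above background is unknown.

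The first comparison asked how the histone genes of U-HO1 and L-1236 differed on arrays labelled control. By limma, 19 of 59 members (32.2%) were higher in U-HO1 and 7 (11.9%) were lower at an adjusted p under 0.05 (Benjamini-Hochberg over 32321 probe sets). Over all probe sets 13.3% were called higher and 12.5% lower, so the share called lower was near the background and the share called higher was above it. The median difference of the members was 0.26 on the log2 scale, with 45 positive and 14 negative, against 0.00 (6e-04) over all probe sets. The lines were grown in different media, so line and medium cannot be told apart, and in such bulk samples fewer cells with an RNA cannot be told apart from less RNA per cell. Counted over all 6 arrays of each line, 14 members lay higher in U-HO1 with no overlap (background 11.8%) and 7 lay lower with no overlap (background 11.5%). On the control arrays alone, the counts without overlap were 23 (background 17.8%) and 7 (background 16.9%).

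H3C11, an H3 gene of the chromosome 6 cluster, had the largest difference. In L-1236 it read 10.53, 11.05 and 10.56 on control arrays and 10.61, 10.77 and 11.47 on knockdown arrays. In U-HO1 it read 7.36, 7.61 and 7.38 on control arrays and 7.38, 6.96 and 7.28 on knockdown arrays. All 6 L-1236 arrays lay above all 6 U-HO1 arrays. On control arrays the mean was 10.71 ± 0.29 in L-1236 and 7.45 ± 0.14 in U-HO1 (SD, n = 3 each), a difference of -3.26 (SE 0.21, limma adjusted p = 3.046e-07), or 9.61-fold higher in L-1236. The U-HO1 values lay around 7.04, the median over all probe sets, so how far they were above background is unknown. A probe set that names both H3C11 and H3C6 did not show this difference. Its control means were 5.18 in L-1236 and 5.26 in U-HO1, a difference of 0.08 (SE 0.07), both below 7.04.

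Of the 9 linker histone genes, 2 were lower and 2 higher in U-HO1. H1-5, a replication-dependent H1, read 8.73, 9.27 and 8.83 on L-1236 control arrays and 5.99, 6.60 and 5.96 on U-HO1 control arrays. Its difference was -2.76 (SE 0.26, limma adjusted p = 9.776e-06), higher in L-1236 with no overlap on either label. All U-HO1 values of H1-5, and likewise of H1-3, H2AC16 and H4C13, were below 7.04, so whether they were above background there is unknown and no fold is given. H1-3 differed in the same direction by -0.76 (SE 0.10), with 7.63 ± 0.12 in L-1236 and 6.88 ± 0.04 in U-HO1 (SD, n = 3 each). H1-4 went the other way. It read 10.46, 11.63 and 11.06 in L-1236 and 12.60, 12.98 and 13.09 in U-HO1, a difference of 1.84 (SE 0.31, limma adjusted p = 0.000789), 3.58-fold higher in U-HO1. H1-10, the linker histone expressed outside S phase, read 8.24, 8.15 and 8.17 in L-1236 and 8.61, 9.34 and 9.36 in U-HO1, a difference of 0.91 (SE 0.22). The spread of H1-10 was 0.43 (SD) over the U-HO1 control arrays and 0.04 over those of L-1236. H1-1 had a difference of 0.78 (SE 0.29) and H1-2 of 0.56 (SE 0.30), and neither passed (limma adjusted p = 0.0717 and 0.209). The germ-cell members H1-6, H1-7 and H1-8 had differences of -0.09 (SE 0.10), 0.01 (SE 0.08) and 0.03 (SE 0.10).

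Among the H2A genes 6 of 14 were higher in U-HO1 and 1 was lower. H2AC17 read 7.31, 7.82 and 7.50 in L-1236 and 8.80, 8.62 and 8.76 in U-HO1, a difference of 1.18 (SE 0.13, limma adjusted p = 2.758e-05). H2AC14 and H2AC11 were higher by 0.77 (SE 0.13) and 0.51 (SE 0.09), also without overlap over 6 arrays a line. All L-1236 values of H2AC14 were below 7.04, the median over all probe sets, so whether they were above background is unknown. H2AC21 (1.20, SE 0.38), H2AC20 (0.82, SE 0.26) and H2AC12 (0.39, SE 0.11) passed with adjusted p of 0.0343, 0.0318 and 0.0224 by limma. Each of these 3 lost the call when L-1236 control 1, L-1236 control 3, U-HO1 control 2 or U-HO1 control 3 was left out. H2AC16 was the member called lower, at 7.04 ± 0.18 in L-1236 and 6.35 ± 0.10 in U-HO1 (SD, n = 3 each). H2AC6, a marker of the set, read 9.25, 9.61 and 9.39 in L-1236 and 8.97, 9.18 and 9.25 in U-HO1. The groups just overlapped at 9.25, and its difference of -0.28 (SE 0.15) did not pass (limma adjusted p = 0.207, 95% interval -0.60 to 0.04).

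Among the H2B genes 4 of 16 were higher and 1 was lower. H2BC5, which also gives a polyadenylated mRNA, had the smallest adjusted p among the members called higher. It read 7.39, 7.45 and 7.27 in L-1236 and 8.53, 8.48 and 8.57 in U-HO1, a difference of 1.16 (SE 0.10, limma adjusted p = 3.435e-06). H2BC10 was higher by 1.23 (SE 0.17), with 6.53 ± 0.26 in L-1236 and 7.76 ± 0.17 in U-HO1 (SD, n = 3 each). All its L-1236 values were below 7.04, the median over all probe sets, so whether they were above background is unknown. H2BC13 (0.77, SE 0.21) and H2BC17 (0.65, SE 0.15) were also called higher. A probe set that names H2BC12, H2BC12L, H2BC17 and H2BC5 differed by 0.35 (SE 0.22) and did not pass (limma adjusted p = 0.300). H2BC13 lost the call without L-1236 control 1, L-1236 control 3 or U-HO1 control 2. The settings added later that are given below, a replication covariate or both control 3 arrays left out, ended, singly or both, the calls of H2BC17, H3C2, H1-10, H4C4 and H4C1 as well. H2BC3 was the member called lower, reading 8.22, 8.91 and 8.45 in L-1236 and 6.74, 7.34 and 7.03 in U-HO1, a difference of -1.49 (SE 0.24). Its U-HO1 values lay around 7.04, so how far they were above background is unknown. The brightest H2B probe sets, H2BC14, H2BC12 and H2BC9, had differences of 0.13 (SE 0.26), -0.18 (SE 0.25) and 0.01 (SE 0.26), and none passed. Of the 6 members with polyadenylated mRNAs, only H2BC5 was called between lines.

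Beside H3C11, 3 of the 8 H3 genes were called, all higher in U-HO1: H3C8 by 0.96 (SE 0.13), H3C2 by 0.83 (SE 0.20) and H3C3 by 0.67 (SE 0.14). H3C3 read 6.97, 7.51 and 7.17 in L-1236 and 7.88, 7.85 and 7.92 in U-HO1. H3C10 differed by 0.35 (SE 0.17) and did not pass. Among the 12 H4 genes 4 were higher and 2 lower. H4C14 of chromosome 1 read 8.49, 9.21 and 8.46 in L-1236 and 9.92, 10.44 and 10.43 in U-HO1, a difference of 1.54 (SE 0.28, limma adjusted p = 0.001301). H4C16 (0.64, SE 0.13), H4C4 (0.61, SE 0.15) and H4C1 (0.57, SE 0.14) were higher by smaller amounts. A probe set that names both H4C15 and H4C14 was higher by 0.58 (SE 0.11, limma adjusted p = 0.00239), less than that of H4C14 alone. H4C6 read 8.59, 9.10 and 8.61 in L-1236 and 7.05, 7.31 and 7.05 in U-HO1, a difference of -1.63 (SE 0.17, limma adjusted p = 1.554e-05). H4C13 was lower by -0.47 (SE 0.12). The brightest H4 probe sets, H4C8, H4C3 and H4C5, had differences of -0.33 (SE 0.18), 0.09 (SE 0.19) and 0.27 (SE 0.12) that did not pass.

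**Figure D2:**
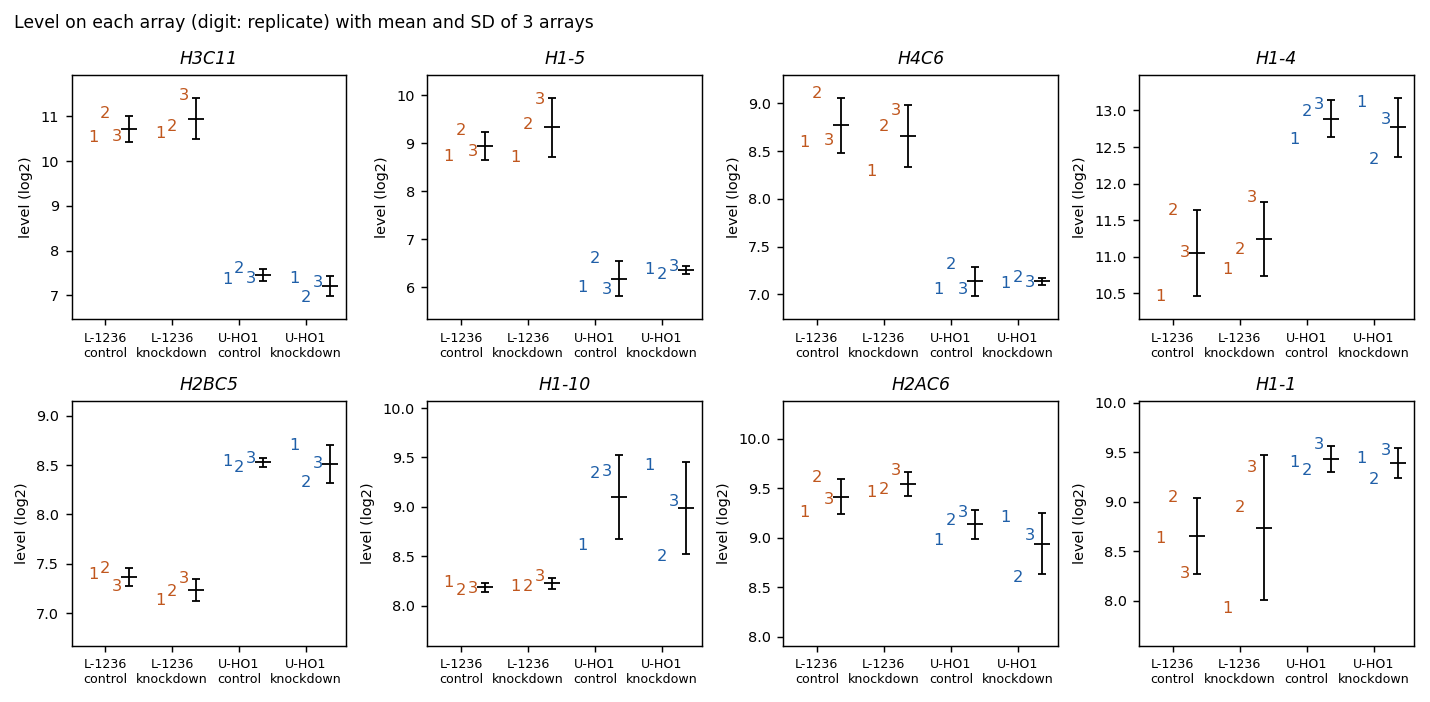
Level (log2) of 8 histone genes on each array, in 4 groups by line and label; digits are replicates, and the black bar is the mean with the SD of 3 arrays. H3C11, H1-5 and H4C6 are higher on all L-1236 arrays, H1-4, H2BC5 and H1-10 are higher on all U-HO1 arrays, and in H1-10 and H2AC6 U-HO1 control 1 and knockdown 2 read below the other U-HO1 arrays of their label.

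Ordered by their position in RefSeq, 6 of the 7 members called lower in U-HO1 stood in 2 runs of histone genes. H2AC16, H1-5, H3C11 and H4C13 followed each other with no other RefSeq gene between them. On one side of this run H2AC15 differed by -0.02 (SE 0.10), with 2 genes between. A probe set that names both H2BC15 and H2AC15 was higher in U-HO1 by 0.65 (SE 0.14, limma adjusted p = 0.00423). On the other side H3C12 differed by 0.55 (SE 0.32) and did not pass, followed by H2AC17 and H2BC17, both higher in U-HO1. H1-3 and H4C6 formed the other run, and H2BC3 stood alone. Members called higher were more scattered, with runs of 2 at H2AC20 and H2AC21, at H1-4 and H2BC5, and at H2AC17 and H2BC17. H2A and H2B genes that share a promoter region head to head formed 9 pairs. In 8 pairs both genes differed in the same direction between lines. As 45 of all 59 members were positive, shared signs are frequent among members in any case. Only H2AC17 and H2BC17 were both called, and in 4 pairs 1 gene was called. Over the 6 arrays of a line, the median correlation within a pair was 0.64 in L-1236 and 0.19 in U-HO1, where partners share the arrays and n is 6.

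**Figure D3:**
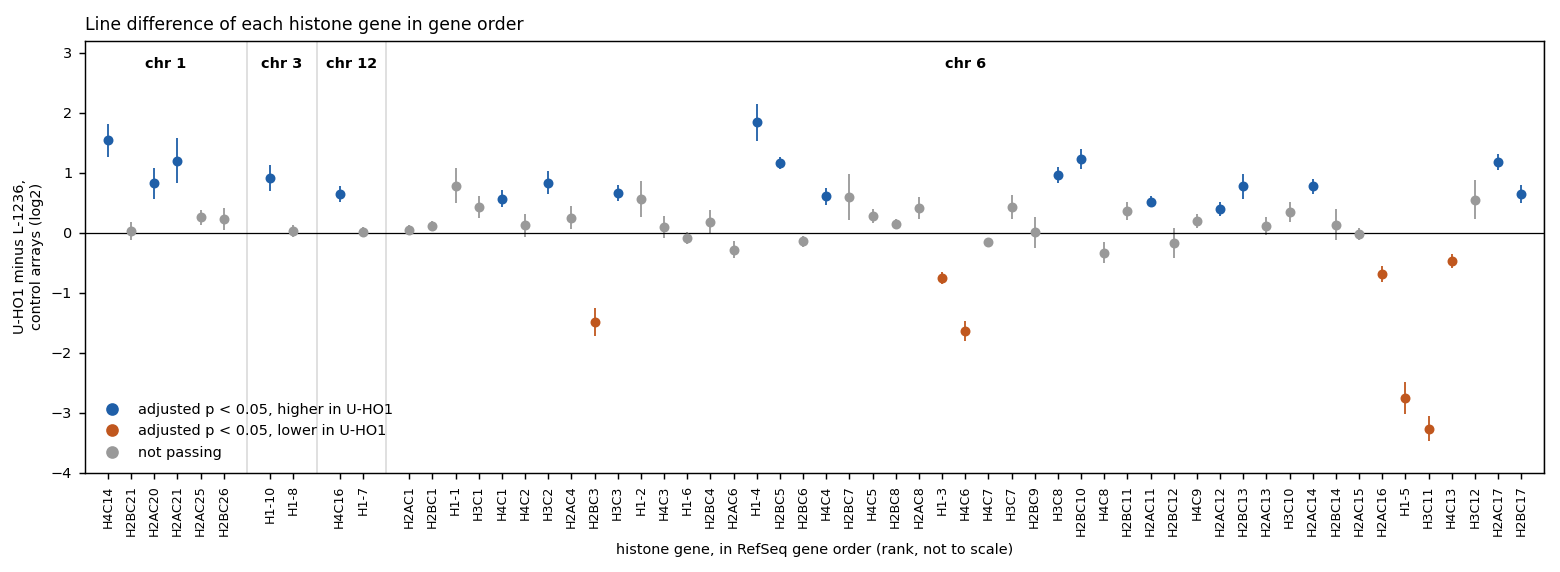
Difference between U-HO1 and L-1236 control arrays (log2, U-HO1 minus L-1236) with its SE for each histone gene, in RefSeq gene order within chromosomes; blue points are genes called higher in U-HO1, orange points genes called lower, both at an adjusted p under 0.05, and grey points did not pass. H2AC16, H1-5, H3C11 and H4C13 sit side by side below 0, between H2AC15 at -0.02 and H3C12 at 0.55.

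The genes that act with histones differed between lines as follows. Of 15 measured factors of histone gene transcription and mRNA processing, 2 were higher in U-HO1 and 3 lower. HINFP, which binds H4 promoters, was lower by -0.60 (SE 0.09), NPAT, the coactivator of replication-dependent histone genes, by -0.48 (SE 0.15), and UPF1, which takes part in histone mRNA decay, by -0.48 (SE 0.10). ERI1, the exonuclease that trims the stem-loop end, was higher by 0.80 (SE 0.13), and CASP8AP2 by 0.61 (SE 0.11). SLBP had a difference of 0.51 (SE 0.18) and did not pass (limma adjusted p = 0.0657). A list of 23 genes, mostly histone chaperones and with the import factor IPO4 and the histone acetyltransferase HAT1, is called the chaperone list below. Of these genes 9 were higher and 2 lower. The H3-H4 chaperone ASF1A stood at 2.22 (SE 0.10), MMS22L at 1.28 (SE 0.15) and CABIN1 at -0.87 (SE 0.08). Of 9 measured variant histones, H2AJ and H2AZ1 were higher by 0.60 (SE 0.16) and 0.48 (SE 0.15), and none was lower. Among the replication genes 15 of 44 were higher and 2 lower, and among 25 mitosis genes 17 were higher and none lower, beside backgrounds of 13.3% and 12.5%. With the replication score as a covariate, a setting added after the data were seen, 11 members in place of 19 were called higher, the number called lower was 7 and the median was 0.16 in place of 0.26. H2BC17 (adjusted p = 0.0648), H3C2 (0.0739), H4C4 (0.0645) and H4C1 (0.0948) were among those that no longer passed by limma. The covariate had 1 slope for both lines, while the median slopes of the members, given below, were 0.46 in L-1236 and -0.76 in U-HO1. The mean score also differed by line (8.95 in L-1236 and 9.32 in U-HO1), so this fit cannot fully separate score from line. Without both control 3 arrays, also added later, 11 members were called higher and H1-10 (limma adjusted p = 0.0829), H3C2, H4C4 and H4C1 no longer passed. The share of all probe sets called was not counted in either setting, so whether the drop is particular to the members is unknown.

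The comparison the series describes, shRNA against GATA-3 minus control shRNA, called no histone gene in either line. By limma 0 of 59 members and 0.0% of 32321 probe sets passed an adjusted p under 0.05 in L-1236, in U-HO1, in the difference between lines and in their mean, and 0 passed the submitters' criteria (FDR no higher than 25% together with a 1.5-fold change). At an unadjusted p under 0.05 there were 0 members in L-1236, where 1.4% of all probe sets were higher and 3.37% lower (1542 in all), and 0 in U-HO1, where 0.554% were higher and 0.495% lower (339 in all). The difference had 0 members higher (background 1.79%) and 1 lower (background 0.671%), and the mean 0 and 0 (background 0.511% and 1.76%). In L-1236 40 members were positive and 19 negative, with a median of 0.08 and a range of -0.18 to 0.39. In U-HO1 10 were positive and 49 negative, with a median of -0.07 and a range of -0.27 to 0.17. Over all probe sets the medians were -0.01 and 0.00 (-0.0091 and -0.0016). The median turned to -0.03 in L-1236 without knockdown 3 and to 0.00 (0.005) in U-HO1 without knockdown 2, so 1 array decided each sign. These contrasts share their control arrays with the comparison of lines.

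Among single genes, H1-5 read 8.69, 9.38 and 9.91 on L-1236 knockdown arrays against 8.73, 9.27 and 8.83 on control arrays, overlapping groups with a difference of 0.39 (SE 0.26). H3C11 differed by 0.24 (SE 0.21) in L-1236 and by -0.25 (SE 0.21) in U-HO1, and H2AC6 by 0.13 (SE 0.15) and by -0.20 (SE 0.15). The smallest p among positive members of L-1236 belonged to H2AC15 (0.20, SE 0.10), H4C13 (0.19, SE 0.12), H1-3 (0.15, SE 0.10) and H1-5. Among negative members it belonged to H1-8 (-0.18, SE 0.10), H2AC1 (-0.14, SE 0.09), H2BC5 (-0.14, SE 0.10) and H2BC6 (-0.11, SE 0.09). In U-HO1 it belonged to H4C7 (0.11, SE 0.08), H1-6 (0.12, SE 0.10), H1-5 (0.17, SE 0.26) and H2AC14 (0.06, SE 0.13), and among negative members to H2AC15 (-0.16, SE 0.10), H2AC6, H2AC1 (-0.11, SE 0.09) and H4C9 (-0.14, SE 0.11). H2AC14 in U-HO1 became -0.05 without knockdown 2. The 1 member at an unadjusted p under 0.05 in the difference was H2AC15 at -0.36 (SE 0.15, limma adjusted p = 0.9997). The other members with the smallest p in the difference were H4C9 (-0.27, SE 0.16), H3C11 (-0.48, SE 0.30) and H2BC13 (-0.48, SE 0.30), and upward H1-6 (0.21, SE 0.14), H4C7 (0.10, SE 0.11), H2BC5 (0.12, SE 0.14) and H1-8 (0.09, SE 0.14). In the mean of both lines they were H1-5 (0.28, SE 0.19), H4C7 (0.06, SE 0.05), H4C13 (0.09, SE 0.08) and H3C10 (0.13, SE 0.12) upward and H2AC1 (-0.13, SE 0.06), H1-8 (-0.13, SE 0.07), H2BC17 (-0.13, SE 0.11) and H2BC5 (-0.08, SE 0.07) downward. Labels did not overlap for H4C16 and H4C9 (higher on knockdown arrays, 3.39% against a background of 3.24%) and H1-8 (lower, 1.69% against 7.45%) in L-1236. In U-HO1 they did not overlap for H2AC15 and H3C3, both lower (3.39% against 1.99%), and for no member upward (background 1.8%).

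The last question was how the histone genes followed the replication state of the arrays. In L-1236 the replication score was 8.81, 9.29 and 8.72 on control arrays and 8.66, 8.91 and 9.32 on knockdown arrays. The mean of the 59 histone genes there was 8.22, 8.53 and 8.27 on control arrays and 8.24, 8.40 and 8.61 on knockdown arrays. Control 2 and knockdown 3 were highest in both. In U-HO1 the score was 9.41, 9.18 and 9.39 on control arrays and 9.24, 9.37 and 9.33 on knockdown arrays, and the histone mean was 8.40, 8.60 and 8.62 and 8.61, 8.28 and 8.50. There control 1 and knockdown 2 had the lowest histone means while their scores were 9.41 and 9.37. As a description over 6 arrays, Pearson's r between the score and the histone mean was 0.96 in L-1236 (Spearman's rho 0.83) and -0.56 in U-HO1 (rho -0.26). Without control 2 and knockdown 3, r over the remaining 4 L-1236 arrays was 0.70, and without control 2 and knockdown 1, r over 4 U-HO1 arrays was -0.05. The points of a line share the same arrays and their normalization: r between the score and the array median was -0.57 in L-1236 and -0.89 in U-HO1, and between the score and the interferon list -0.58 and 0.69. The part of the array median and of the interferon list in the relation was not tested.

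**Figure D4:**
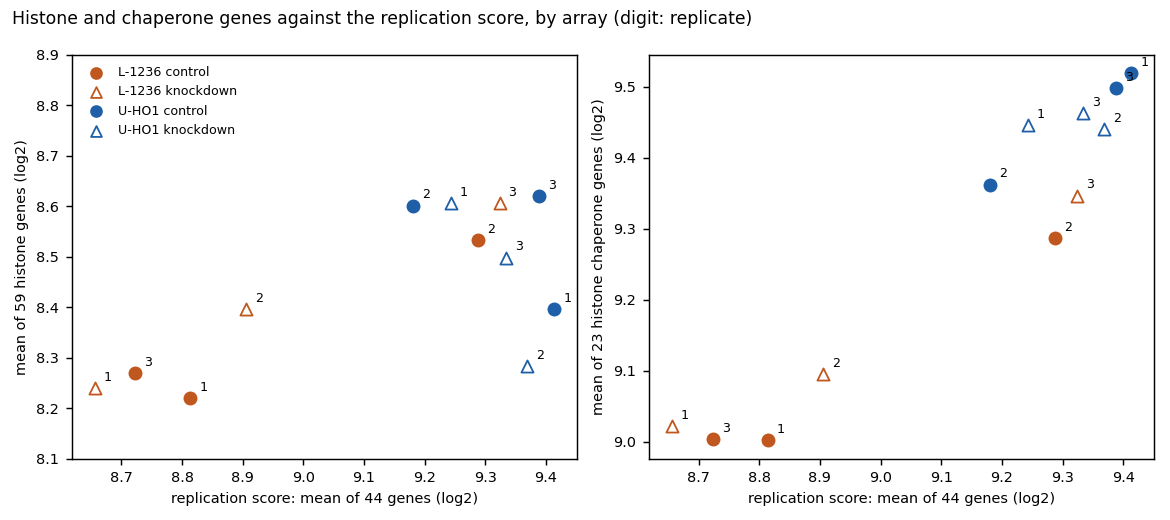
Mean level (log2) on each array of the 59 histone genes (left) and of the 23 genes of the chaperone list (right). Both are set against the replication score, the mean of 44 replication genes (log2). Filled circles are control and open triangles knockdown arrays, and digits are replicates. In L-1236 (orange) both means are highest on control 2 and knockdown 3; in U-HO1 (blue) the histone mean is lowest on control 1 and knockdown 2, whose scores are 9.41 and 9.37.

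By class, r with the score over the 6 L-1236 arrays was 0.88 for H1, 0.97 for H2A, 0.86 for H2B, 0.95 for H3 and 0.92 for H4. Over the 4 arrays left without control 2 and knockdown 3, r was 0.09 for H2B, while the other classes stood between 0.73 and 0.86. The 6 members with polyadenylated mRNAs had r of 0.60 over 6 arrays and -0.31 over 4. The mean of the chaperone list had r of 0.97 in L-1236 and 0.88 in U-HO1. In U-HO1 that mean thus went with the score on these arrays and the histone mean did not. Single members varied around their class: 51 of 59 had a positive r with the score in L-1236 and 15 in U-HO1.

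Per gene the relation was fitted as a slope within the 4 groups. The slope is the log2 change of a gene per 1 log2 unit of the score. The 44 score genes stayed in the fit and in the Benjamini-Hochberg adjustment over 32321 probe sets. They were left out only of the background shares, given over 32277 probe sets. In L-1236 24 of the 44 score genes were called, and each is part of the score. How this changed the adjusted p of the members was not tested. In L-1236 5 of 59 members (8.47%) had a positive slope at an adjusted p under 0.05 by limma, against 0.802% of all probe sets, and 0 a negative one (background 0.031%). The median slope was 0.46, with 50 positive and 9 negative, against -0.02 over all probe sets. At an unadjusted p under 0.05, 29 members (49.2%) had a positive slope against 9.06% of all probe sets, and 1 a negative one (1.69% against 3.85%). The count of 5 became 2 without L-1236 control 1, L-1236 control 3, U-HO1 control 1 or U-HO1 knockdown 1 and 3 without L-1236 knockdown 2. It became 0 without L-1236 control 2, L-1236 knockdown 1, L-1236 knockdown 3 or U-HO1 knockdown 3, and 0 without control 2 and knockdown 3 together. It also became 1 after quantile normalization, 3 with a trended prior or a score over mitosis genes, and 0 with the replicate number as a block. The share of all probe sets called was not counted in these refits.

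The 5 members with a called slope in L-1236 were H3C11 (1.16, SE 0.18, limma adjusted p = 0.0252), H1-5 (1.38, SE 0.24), H2AC21 (2.16, SE 0.38), H4C6 (0.91, SE 0.16) and H1-1 (1.65, SE 0.30). The remaining adjusted p were 0.0356, 0.0379, 0.0384 and 0.0435 in that order. After quantile normalization H3C11 had an adjusted p of 0.0572 by limma, and with the block the 5 had 0.120 to 0.324, all with positive slopes. H2AC21 read 8.88, 10.49 and 9.24 on control and 9.12, 9.50 and 10.31 on knockdown arrays of L-1236, highest on control 2 and knockdown 3. H1-1 read 8.63, 9.05 and 8.28 on control and 7.92, 8.94 and 9.35 on knockdown arrays of L-1236, and 9.23 to 9.58 over the U-HO1 arrays. H1-10, the member expressed outside S phase, stayed between 8.15 and 8.29 over the L-1236 arrays, with a slope of 0.05 (SE 0.36). H2AC6 had a slope of 0.42 (SE 0.25) that did not pass (limma adjusted p = 0.512). The 1 member with a negative slope at an unadjusted p under 0.05 was the germ-cell gene H1-6 (-0.39, SE 0.17, limma adjusted p = 0.366), one of the 7 dim genes.

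In U-HO1 0 of 59 members passed by limma (background 0.0% in both directions), and at an unadjusted p under 0.05 there were 8 with a negative slope (13.6% against 2.11% of all probe sets) and 0 with a positive one (background 4.83%). The median slope there was -0.76, with 14 positive and 45 negative, over a score that spanned 0.23. The smallest p belonged to H2BC3 (-2.59, SE 0.71), H1-5 (-2.34, SE 0.75), H2BC13 (-2.62, SE 0.86) and H4C2 (-1.74, SE 0.62), with adjusted p of 0.611 to 0.665 by limma. Among positive slopes it belonged to H2BC21 (0.78, SE 0.89), H2AC13 (0.76, SE 0.90), H2BC17 (0.46, SE 0.76) and H4C7 (0.29, SE 0.48). The signs of H2BC21 and H2AC13 turned without U-HO1 control 2, to -1.95 and -1.23. The test of the slope in U-HO1 minus that in L-1236 called 0 members by limma (background 0.0%), with 19 members lower in U-HO1 at an unadjusted p under 0.05 (32.2% against 1.7% of all probe sets) and 0 higher (background 3.46%). Its smallest p belonged to H2BC3 (-3.70, SE 0.74), H1-5 (-3.72, SE 0.79), H3C11 (-2.59, SE 0.60) and H4C2 (-2.68, SE 0.65), each with an adjusted p of 0.705 to 0.712 by limma. Positive differences were smaller in size: H2BC21 0.99 (SE 0.93), H4C8 1.08 (SE 1.10), H2AC13 0.48 (SE 0.94) and H1-6 0.28 (SE 0.56).

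With 1 slope for both lines, H1-1 was the only member called by limma (1.53, SE 0.30, adjusted p = 0.0366), 1.69% of the members against 1.24% of all probe sets, and 0 were called with a negative slope (background 0.0434%). At an unadjusted p under 0.05, 18 members were positive (30.5% against 10.0%) and 1 negative (1.69% against 4.64%). The count was 0 without any 1 of L-1236 control 2, L-1236 control 3, L-1236 knockdown 1, L-1236 knockdown 3, U-HO1 control 3 or U-HO1 knockdown 3. It was 2 without U-HO1 control 1, U-HO1 control 2 or U-HO1 knockdown 2. No share over all probe sets was counted for these refits. With all arrays kept, SLBP (0.98, SE 0.18) and ZNF473 (0.90, SE 0.17), which act in histone mRNA 3′-end formation, were called among 15 factors. Of the 23 genes of the chaperone list 6 were called. Among them were ASF1B (1.09, SE 0.11), NASP (0.84, SE 0.12) and the histone acetyltransferase gene HAT1 (1.07, SE 0.16). Of 9 variant histones 3 were called: H2AX (0.70, SE 0.13), H2AZ1 (0.79, SE 0.16) and MACROH2A1 (0.65, SE 0.12).

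**Figure D5:**
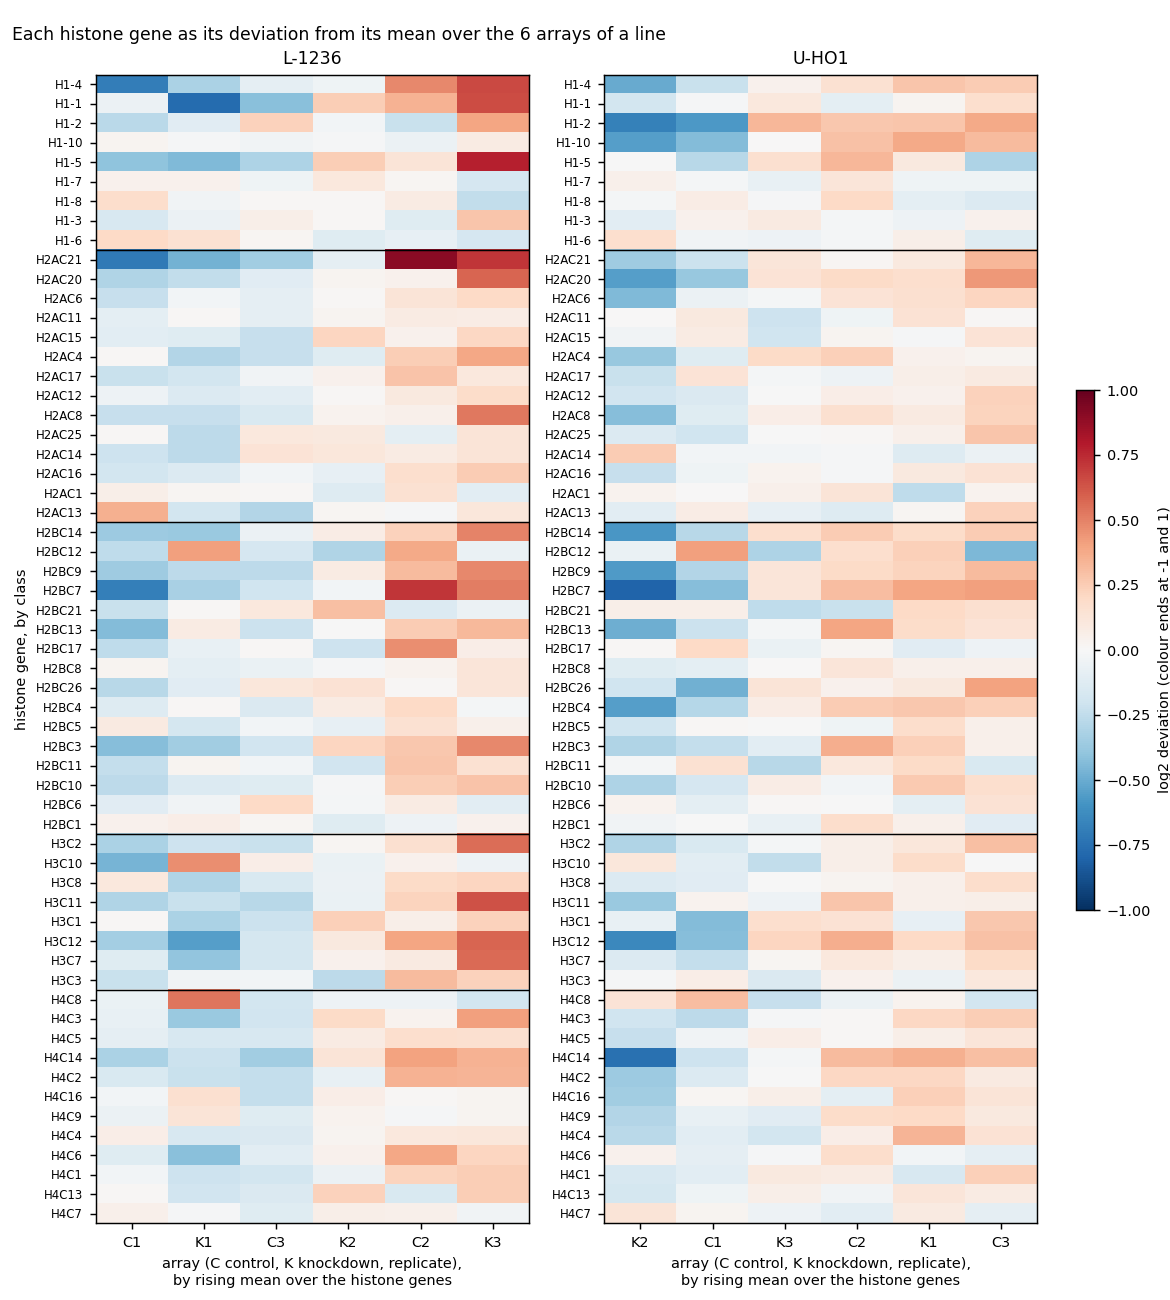
Each histone gene as its log2 deviation from its mean over the 6 arrays of a line, by class; columns are arrays (C control, K knockdown) ordered by their mean over the histone genes, and colours end at -1 and 1. In L-1236 most genes are high on control 2 and knockdown 3, and in U-HO1 most are low on knockdown 2 and control 1, with H4C8 and H2BC12 among the exceptions.

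The map of deviations shows how far the members moved together. Over the 6 arrays of a line, the median r of a member with the mean of all other members was 0.77 in L-1236 and 0.79 in U-HO1. No r of this kind was computed for other sets of genes, so whether its size is particular to the histone genes is unknown. The part of signal shared between similar copies was not tested. In U-HO1 the shared movement of the members separated control 1 and knockdown 2 from the other arrays. H1-10 read 8.61 on control 1 and 8.50 on knockdown 2 and 9.05 to 9.42 on the other 4 U-HO1 arrays. H1-2 read 8.33 and 8.23 on these arrays and 9.17 to 9.29 on the others. H2BC7 read 9.66 and 9.28 and 10.20 to 10.50 on the others. H2BC12 did not follow this order, with 11.94 on control 1, 11.46 on knockdown 2 and 11.08 to 11.77 on the others, and H4C8 went against it, with 10.30 and 10.13 against 9.76 to 10.03.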

How the data were processed

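The authors deposited 1 normalized expression value per probe set and array, on a scale taken here as log2 from its range; per the submitters' processing notes R 2.8.1 was used, and background correction, normalization and summary were not stated. No scanner signal was used, so the number of arrays limits the precision. Gene symbols came from the platform annotation (19158 of 32321 probe sets had a single symbol), gene order and promoters from RefSeq (GRCh38.p14). The deposited log2 values were fitted with limma 3.58.1 in R 4.3.3 (4 group means over 12 arrays, eBayes, Benjamini-Hochberg over all probe sets, threshold 0.05), checked on simulated data. The simulated noise was independent between probe sets, while the histone genes moved together. Of simulated knockdown changes of 0.585 (log2), 55% were recovered in L-1236 and 68% in U-HO1, and of changes of 1, 93% in each. The changed probe sets were drawn at random from all 32321, each with its own spread. These shares are therefore not those of the histone genes, whose knockdown SE was for instance 0.08 in H4C7 and 0.38 in H2BC7. Recovery among the members was not simulated. Slopes added the replication score, centred within groups. Alternatives were quantile normalization, median centring, a filter on dim probe sets, 1 probe set per gene, a trended and robust prior, array weights, a replicate block, other scores and leaving out each array. The members, lists and tests were chosen with earlier results of these data known. Genes named are H2AC6 and H3C11, the 3 brightest of a class, the linker histones and all members called. Where none was called, the 4 smallest p each way were named, and up to 3 of each other list. H2BC7, H2BC12, H4C8, the neighbours H2AC15 and H3C12, SLBP, NPAT and the probe sets of several genes were named after their values were seen.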

Additional observations from a re-analysis of the deposited data

How the results depend on the processing

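Between lines, 17 of the 26 called genes kept the call under every alternative that tested them (H2AC16 was left out with the dim probe sets), 9 lost it under at least 1 and 0 turned. The count called higher (19) was 11 with the replication score as a covariate and 11 without both control 3 arrays, settings added after the data were seen, and 15 to 22 without single arrays; the count called lower was 7 to 7 without single arrays and 6 (without dim probe sets) to 9 (both labels together) otherwise. The share of all probe sets called was counted only in the main fit, so these counts have no background of their own. The median was 0.23 to 0.37 without single arrays and 0.16 (replication covariate) to 0.38 (without dim probe sets) otherwise. The knockdown counts were 0 under all alternatives run, and the medians without single arrays were -0.03 to 0.15 in L-1236, -0.14 to 0.00 (0.005) in U-HO1, -0.22 to -0.04 in the difference and -0.07 to 0.05 in the mean. Without knockdown 1 and control 3, added later, 6 members in L-1236 (10.2% against 8.65% of all probe sets) and 1 in U-HO1 (1.69% against 3.11%) had an unadjusted p under 0.05.

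The shared slope count (1) was 0 after quantile normalization, with a trended prior, with array weights, with the replicate block and without the 2 L-1236 arrays of highest score. It was 2 after centring, without dim probe sets, with 1 probe set per gene and with line means only, 5 with a mitosis score, and 0 to 2 without single arrays. The L-1236 count (5) was 1 after quantile normalization, 3 with a trended prior, 3 with a mitosis score, 28 with array weights, 0 with the replicate block, 0 without the 2 arrays, and 0 to 5 without single arrays. Array weights gave 20 for U-HO1 and 27 for the difference, but the weights of these fits did not converge (0.00371 to 12.6). The cause of the other changes was not tested. For slopes too, the share of all probe sets called was counted only in the main fit. Whether the members moved more than all probe sets is therefore unknown. Replicate numbers did not pair the samples (correlations of 0.17, -0.40 and -0.22 in L-1236 and -0.17, 0.06 and 0.32 in U-HO1). With the number as a block, H2BC13 had an adjusted p of 0.0595 between lines by limma and every other line call held. The highest correlation of a control with a knockdown array was 0.54 in L-1236, between control 2 and knockdown 3. In U-HO1 it was 0.38, between control 1 and knockdown 2. These were computed over all probe sets as deviations from group means, and their part in the histone values was not tested.

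Signs turned only for genes that had not passed. In U-HO1 slopes, quantile normalization gave -0.091 for H2BC21 and -0.13 for H2AC13, and weights gave -1.42, -0.74 and, for H4C7, -0.045. The mitosis score gave -0.59 for H2BC17, -0.30 for H4C7, 0.73 for H2BC3, 1.30 for H2BC13 and 1.11 for H4C2. In the slope difference H2BC21 was -1.10 with weights, H2AC13 -0.46 after quantile normalization, -0.95 with weights and -0.21 with the block, and the mitosis score gave -0.98 for H4C8, -0.32 for H1-6 and 0.44 for H4C2. Without single arrays the difference ran from -1.74 (without U-HO1 control 2) to 1.81 for H2BC21 and from -1.50 to 0.91 for H2AC13, and the U-HO1 slopes from -1.95 to 1.60 and from -1.23 to 1.18. The knockdown difference of H4C7 was -0.017 with weights, and H2AC14 in U-HO1 was -0.048 without knockdown 2. Without dim probe sets 52 members remained.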

Other observations

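In U-HO1, control 1 and knockdown 2, the arrays with the lowest histone means, also stood apart in genes outside the histone set, which were chosen after their values were seen. FOS, an immediate early gene, read 7.55 on control 1 and 7.76 on knockdown 2, and 7.06 to 7.17 on the other 4 U-HO1 arrays. RRAD read 8.06 and 8.54 against 7.27 to 7.58, SPP1, which encodes osteopontin, 8.05 and 8.21 against 7.07 to 7.33, and the transporter gene SLCO2B1 7.86 and 7.98 against 6.89 to 7.04. NDRG3 read 9.07 and 8.90 against 9.25 to 9.40. The part of these differences in the histone values was not tested.

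In L-1236 the histone mRNA factors NPAT and SLBP were highest on the same arrays as the histone mean. NPAT read 9.55 on control 2 and 9.64 on knockdown 3 against 8.91 to 9.33 on the other 4 L-1236 arrays, and SLBP 9.57 and 9.60 against 8.90 to 9.28. In U-HO1 SLBP read 9.71 on control 1 and 9.87 on knockdown 2, within the 9.51 to 9.87 of the other 4 arrays, where the histone mean was low.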
